A study of Mus musculus with 5 samples.

Results

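Mammalian germ cells replace several housekeeping enzymes of energy metabolism with germline forms encoded by separate genes. Pairs of somatic and germline forms were followed here for 5 proteins, through 10 genes chosen by symbol out of 27998 features measured: glyceraldehyde-3-phosphate dehydrogenase (Gapdh and its germline form Gapdhs), phosphoglycerate kinase (Pgk1 and Pgk2), phosphoglycerate mutase (Pgam1 and Pgam2), the E1 alpha subunit of pyruvate dehydrogenase (Pdha1 and Pdha2) and cytochrome c (Cycs and Cyct). All 10 symbols were found, each once. The study took whole testes of mice whose spermatogenesis had been synchronized, and prepared 1 droplet single-cell RNA library at each of 5 times: 0 h, labelled as the control and synchronized like the others, then 144 h, 350.4 h, 556.8 h and 763.2 h. Strain, age, the number of mice per library and the synchronizing agent were not given in the sources used here. With 1 library per time there is no replicate, so no p-value is given anywhere, and time and library cannot be told apart.

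Glycolysis splits glucose into pyruvate in the cytosol. Glyceraldehyde-3-phosphate dehydrogenase, phosphoglycerate kinase and phosphoglycerate mutase catalyse consecutive reactions in its later part, and the kinase reaction is the first of the pathway to return ATP. Pyruvate dehydrogenase then commits pyruvate to the mitochondrion, and its E1 alpha subunit carries the serines by which kinases switch the complex off. Cytochrome c passes electrons from complex III to cytochrome c oxidase and, once released into the cytosol, triggers caspases. Spermatogonia are the mitotic germ cells, spermatocytes are in meiosis and spermatids are haploid. Sex chromosomes are silenced in pachytene spermatocytes, and Pgk1 and Pdha1 are X-linked, whereas Pgk2 and Pdha2 are autosomal copies without introns that are usually described as retrogenes. Sperm motility depends on Gapdhs and Pgk2 in mice. Pgam2 is the muscle form of its enzyme and is also made in spermatogenic cells.

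The gene models show the same division (GENCODE M21, GRCm38). Pgk1 (chromosome X, 106187100 to 106203699, plus strand) and Pdha1 (chromosome X, 160122209 to 160138413, minus strand) have 11 exons each in the annotation. Their germline partners Pgk2 (chromosome 17, 40207015 to 40208640, minus strand) and Pdha2 (chromosome 3, 141210004 to 141212355, minus strand) have 1 exon each. The other germline forms are spliced: Gapdhs (chromosome 7, 30729775 to 30743681) has 11 exons, Pgam2 (chromosome 11, 5801640 to 5803733) has 3 and Cyct (chromosome 2, 76353942 to 76360450) has 4, all on the minus strand. Their somatic partners are also autosomal, Gapdh and Cycs on chromosome 6 and Pgam1 on chromosome 19. The promoter windows of the 5 germline forms and of Pgk1 are shown because the forms differ there in CpG content and motifs. Each runs from 250 bases before to 50 bases after the transcription start (RefSeq, GRCm38.p6), read 5′ to 3′ on the gene's strand. Capitals mark exact matches on either strand to the TATA box TATAAA, the CCAAT box CCAAT, the GC box core GGGCGG and the core TGACG of the cyclic AMP response element.

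Pgk2, chr17:40208560-40208859, minus strand: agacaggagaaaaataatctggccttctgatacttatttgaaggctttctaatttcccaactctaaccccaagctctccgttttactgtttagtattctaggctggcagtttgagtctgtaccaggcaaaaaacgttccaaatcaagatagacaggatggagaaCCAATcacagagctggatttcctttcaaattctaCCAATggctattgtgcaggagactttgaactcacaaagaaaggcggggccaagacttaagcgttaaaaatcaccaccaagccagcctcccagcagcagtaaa

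Pdha2, chr3:141212306-141212605, minus strand: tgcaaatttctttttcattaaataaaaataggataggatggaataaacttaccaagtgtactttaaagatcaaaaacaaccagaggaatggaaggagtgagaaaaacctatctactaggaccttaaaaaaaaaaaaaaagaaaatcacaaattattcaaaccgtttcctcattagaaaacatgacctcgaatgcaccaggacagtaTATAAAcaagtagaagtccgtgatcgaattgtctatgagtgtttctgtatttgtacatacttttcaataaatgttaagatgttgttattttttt

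Gapdhs, chr7:30743632-30743931, minus strand: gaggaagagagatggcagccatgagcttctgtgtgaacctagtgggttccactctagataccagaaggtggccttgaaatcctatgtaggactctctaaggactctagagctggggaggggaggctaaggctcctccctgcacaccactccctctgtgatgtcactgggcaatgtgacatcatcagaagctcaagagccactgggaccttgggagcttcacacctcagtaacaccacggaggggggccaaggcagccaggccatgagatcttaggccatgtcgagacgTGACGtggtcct

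Pgam2, chr11:5803747-5804046, minus strand: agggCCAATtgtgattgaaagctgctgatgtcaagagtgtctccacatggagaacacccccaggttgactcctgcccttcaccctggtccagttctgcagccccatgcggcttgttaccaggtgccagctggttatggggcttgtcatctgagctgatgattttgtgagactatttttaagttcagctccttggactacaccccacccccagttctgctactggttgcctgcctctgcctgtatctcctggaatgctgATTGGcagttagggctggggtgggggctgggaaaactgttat

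Cyct, chr2:76360404-76360703, minus strand: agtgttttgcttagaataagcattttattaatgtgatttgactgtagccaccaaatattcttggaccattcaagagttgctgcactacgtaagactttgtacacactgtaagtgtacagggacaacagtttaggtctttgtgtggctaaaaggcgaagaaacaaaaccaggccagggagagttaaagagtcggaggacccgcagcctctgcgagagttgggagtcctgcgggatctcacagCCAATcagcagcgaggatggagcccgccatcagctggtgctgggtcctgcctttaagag

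Pgk1, chrX:106186850-106187149, plus strand: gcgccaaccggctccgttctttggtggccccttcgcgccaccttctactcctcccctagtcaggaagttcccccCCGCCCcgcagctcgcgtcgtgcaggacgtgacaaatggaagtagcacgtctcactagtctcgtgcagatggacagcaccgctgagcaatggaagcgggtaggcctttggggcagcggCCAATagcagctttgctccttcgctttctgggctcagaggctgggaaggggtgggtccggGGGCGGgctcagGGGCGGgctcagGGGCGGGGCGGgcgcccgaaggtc

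The 5 germline windows shown hold 4 CpG dinucleotides each in Pgk2, Pdha2 and Gapdhs, 1 in Pgam2 and 8 in Cyct. A further Gapdhs window at another start, not shown, holds 1. The 5 somatic windows hold 24 in Pgk1, 21 in Pdha1, 12 in Gapdh, 30 in Pgam1 and 32 in Cycs, so the 2 sets do not overlap. The start used for the Gapdh window lies 694 bases from that of the gene model. Over all 32851 promoter windows the median was 7.00, with quartiles of 3.0 and 20.0. Cyct lay above that median, Pgam2 below the lower quartile, and the windows shown for Pgk2, Pdha2 and Gapdhs between the lower quartile and the median. Gapdh lay between the quartiles and the other somatic windows above them. CCAAT was found in Pgk2 at bases -86 and -52 from the start, in Pgam2, in Cyct at -9, in Pgk1 at -58 and in Cycs, against 37.4% of all windows. TATAAA was found in Pdha2 at -44 and in no other member window (13.6% of all windows). GGGCGG was in 3 of the 5 somatic windows (5 matches in Pgk1, the others in Pgam1 and Cycs) and in none of the germline ones (35.7% of all windows). TGACGTCA, the full cyclic AMP response element, was found in the Cycs window alone among the members (1.79% of all windows), and its first bases TGACG were in Gapdhs, Pdha1 and Cycs (20.8%). These are matches of letters and say nothing of what binds there.

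Cells were grouped without using the members: all 10 were left out of the clustering, and clusters were named from other marker genes only, so each class name means cells like that type. Each class and library sum used here held all, or all but 1, of the 5 to 12 markers of its name. Of 38208 cells kept, 12209 in 15 clusters were germ cells too shallow to stage and 4634 in 12 clusters were left unnamed. The libraries held 75578147 to 118147393 UMIs (unique molecular identifiers, each counting 1 captured RNA). Sertoli-like cells numbered 15 at 763.2 h and 3246 at 0 h. Elongating spermatids numbered 6, 540 and 626 at 350.4, 556.8 and 763.2 h, with none at 0 and 144 h. Cells were summed per class and library, levels are the share of that sum scaled to CPM, the usual unit of counts relative to a fixed total, and classes under 30 cells were not used. Intervals are exact 95% intervals for counting error only. RNA of spermatids was present outside spermatids in the late libraries: the 12 elongating spermatid markers, all of them detected, took 4513 CPM of Sertoli-like cells at 556.8 h, against 2.24 CPM at 0 h. Values of early germ cells and somatic cells at 556.8 and 763.2 h are therefore given with those marker levels, and the part of spermatid RNA in them was not tested. Pairs of libraries shared 11 to 37 cell barcodes.

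In the whole libraries, with every barcode counted, all 5 germline forms were higher and all 5 somatic forms lower at each of the 4 later times than at 0 h. Gapdhs, the germline dehydrogenase, was at 0, 0.0357, 23.6, 356 and 789 CPM at 0, 144, 350.4, 556.8 and 763.2 h, while Gapdh was at 1169, 1011, 435, 68.1 and 69 CPM. Pgk2, the germline kinase, was at 0.119, 0.178, 32.6, 296 and 451 CPM, and Pgam2, the mutase, was at 0.251, 1.10, 221, 1154 and 991 CPM. Pgk1 was at 12.3, 5.05, 3.08, 1.20 and 0.925 CPM, Pgam1 at 352, 307, 91.3, 26.7 and 19.3 CPM and Pdha1 at 35.5, 24.3, 6.95, 1.99 and 1.19 CPM. Both mitochondrial germline forms had reached their late level or passed it by 350.4 h. Pdha2 was at 5.61, 14.3, 183, 189.7 and 197 CPM, and Cyct at 26.9, 40.6, 355, 274 and 237 CPM, while Cycs was at 59.7 CPM at 763.2 h and 1120.2 CPM at 0 h. In such totals a larger number of cells of a stage and more RNA per cell cannot be told apart, so the stages were taken separately.

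**Figure D1:**
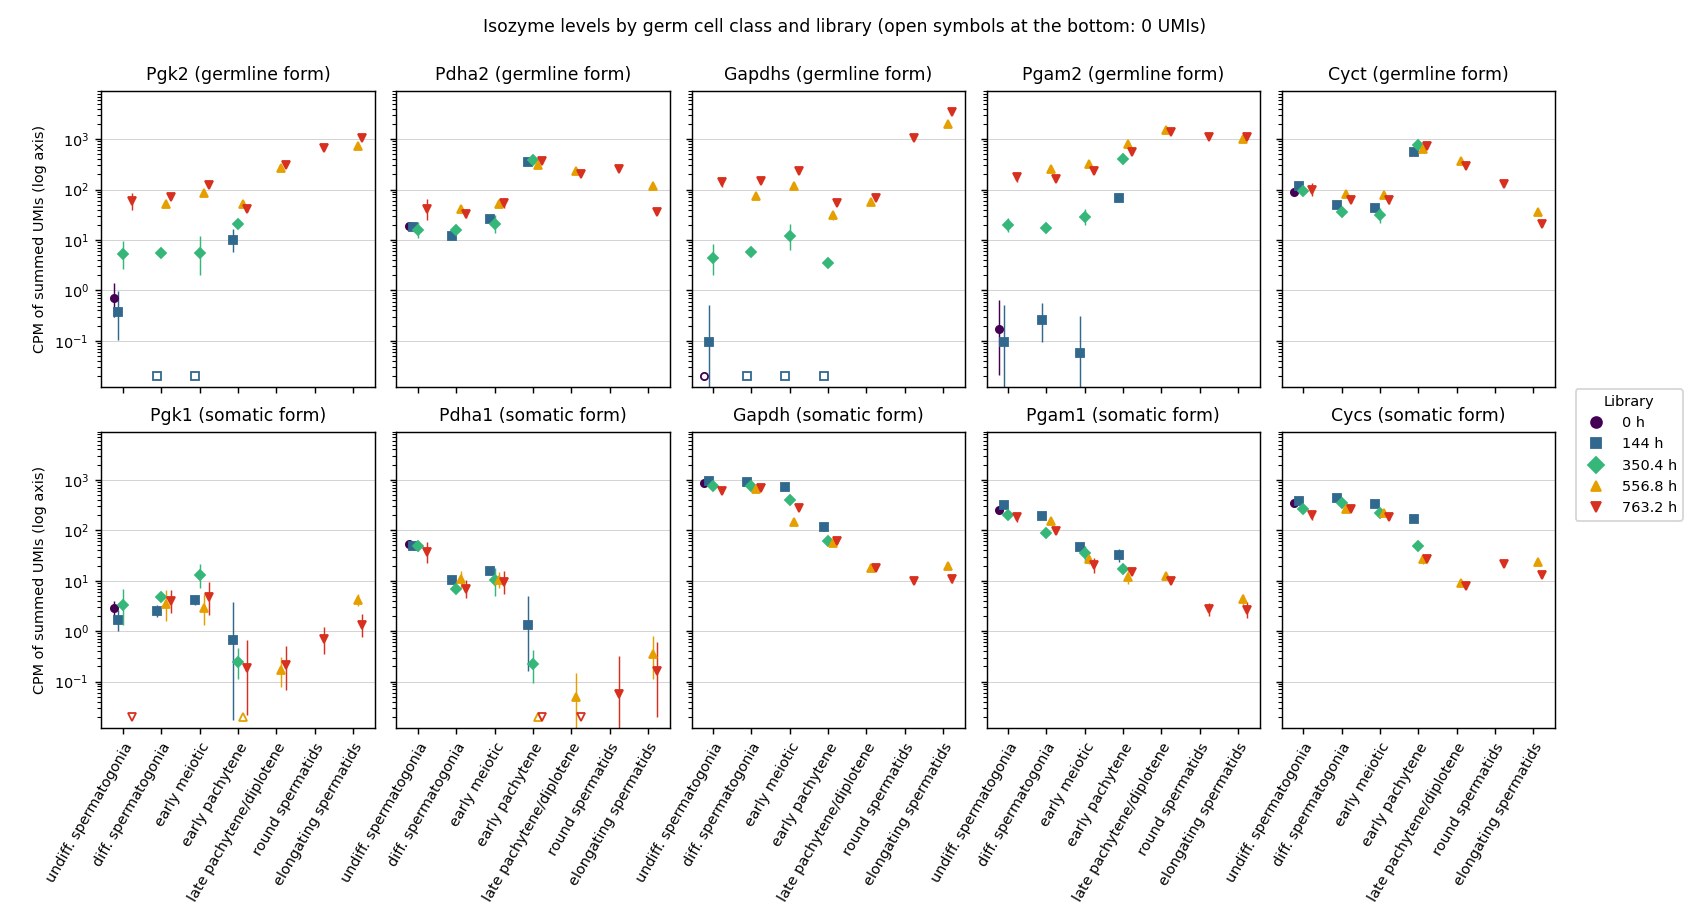
Level of each member (CPM of the class sum, log axis) in the germ cell classes from undifferentiated spermatogonia to elongating spermatids. Each point is 1 library with its exact 95% Poisson interval. Pdha2 and Cyct peak in early pachytene, Pgam2 in late pachytene, and Pgk2 and Gapdhs in elongating spermatids.

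Gapdhs came last of the germline forms in the order of stages. Gapdhs had no UMI at 144 h in differentiating spermatogonia, in early meiotic spermatocytes or in early pachytene spermatocytes, where counts of 0 allow levels of up to 0.132, 0.169 and 2.03 CPM. It was at 3.43 CPM (2.85 to 4.08) in early pachytene cells at 350.4 h, on 125 UMIs. That lay below the 12 CPM (6.39 to 20.5) of early meiotic cells in that library, on 13 UMIs. At 350.4 h spermatid markers took 55.4 CPM of the early pachytene sum and 181 CPM of the early meiotic sum. How far this Gapdhs difference follows spermatid RNA was not tested. Late pachytene and diplotene cells held 67.2 CPM at 763.2 h and 55.8 CPM at 556.8 h. Spermatid markers took 1702 and 4474 CPM of those sums, and the part of spermatid RNA in these Gapdhs values was not tested. Gapdhs reached 1046 CPM (1031 to 1061) in round spermatids at 763.2 h, 15.6 times (14.8 to 16.4) the level of late pachytene cells. Elongating spermatids reached 3437 CPM at 763.2 h, 3.29 times (3.23 to 3.34) the round level, and 1986 CPM at 556.8 h. Elongating spermatids were above late pachytene cells in both libraries, and their 2 levels differed by more than their intervals.

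Gapdh, the somatic form, fell at early pachytene, where Gapdhs was still low. It was at 849, 970.4, 759 and 589 CPM in undifferentiated spermatogonia at 0, 144, 350.4 and 763.2 h. Early meiotic cells held 707 CPM at 144 h and 399 CPM at 350.4 h. Early pachytene cells held 115, 62.0, 57.2 and 60.3 CPM at 144, 350.4, 556.8 and 763.2 h, which is 0.163 times (0.139 to 0.189) the early meiotic level at 144 h and 0.155 times at 350.4 h. The early meiotic cells of 144 and 350.4 h came mostly from a cluster led by Stra8 and those of 556.8 and 763.2 h from a cluster led by Pbx3 and Tex15, with Gapdh at 146 and 276 CPM in the later libraries. With a mitochondrial limit of 10%, or at least 5000 UMIs a cell, the early pachytene step of the 763.2 h library turned round, to a log2 ratio of 0.89 or 0.50 against -2.19. Late pachytene cells held 18.2 CPM at 763.2 h and round spermatids 9.88 CPM. Late pachytene cells therefore held little of either form, in both libraries. Gapdhs made up 47.4%, 78.7%, 99.1% and 99.7% of the pair's UMIs in early pachytene, late pachytene, round and elongating cells of the 763.2 h library. Spermatid markers took 1550.5 and 1702 CPM of the early and late pachytene sums, and the part of spermatid RNA in their shares was not tested. Of the last 400 bases of the Gapdh transcript, 93.5% of 31-base words also occur in transcripts of other genes, 220 of them in all, so Gapdh counts may be divided among copies and are uncertain. None of the other 9 members shared such a word with another gene, and no pair shared one between its forms.

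Pgk2 was higher in early pachytene than in early meiotic cells at 144 and 350.4 h. It was higher again in late pachytene cells and round spermatids. A few UMIs came earlier, 8 and 4 in undifferentiated spermatogonia at 0 and 144 h, in 6 of 261 and 4 of 268 cells. Spermatid markers took 17.2 and 18.0 CPM of those sums. Pgk2 had 15 UMIs in the 36 early pachytene cells at 144 h, or 10.1 CPM (5.68 to 16.7), against no UMI in early meiotic cells. That is 60.2-fold with 3 UMIs as the floor of the early meiotic sum. This leaves out the counting error of the 15 UMIs, which are too few for a call. At 350.4 h Pgk2 was at 20.9 CPM (19.5 to 22.5) in early pachytene cells and 5.54 CPM (2.03 to 12) in early meiotic cells. Late pachytene and diplotene cells held 307 CPM at 763.2 h and 263 CPM at 556.8 h, 7.61 times (6.91 to 8.40) and 5.04 times the early pachytene level of the same library. Round spermatids held 680.0 CPM at 763.2 h, and elongating spermatids 1072 CPM at 763.2 h and 730.2 CPM at 556.8 h. Round over late pachytene was 2.22 times (2.15 to 2.28), and elongating over round was 1.58 times (1.54 to 1.62), which lies under the 2-fold limit for a call. In early meiotic cells Pgk2 was at 84.5 CPM at 556.8 h and 125 CPM at 763.2 h, where spermatid markers took 8085 and 7417 CPM, against 181 CPM at 350.4 h and 2.25 CPM at 144 h. The share of spermatid RNA in those Pgk2 values was not tested.

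Pgk1 had its highest level of any class at 29.8 CPM, in macrophage-like cells of the 0 h library. The 3' counts do not compare this level with those of other genes, and how well Pgk1 RNA was captured was not tested. Sertoli-like cells held 16.3, 9.39, 9.95 and 4.19 CPM at 0, 144, 350.4 and 556.8 h. Undifferentiated spermatogonia held 2.88, 1.68, 3.36 and 0 CPM at 0, 144, 350.4 and 763.2 h, where the last allows up to 6.22 CPM. Early meiotic cells held 4.21, 12.9, 2.84 and 4.76 CPM from 144 h on. In early pachytene cells Pgk1 was at 0.676, 0.247, 0 and 0.183 CPM over the 4 libraries, and its 350.4 h level was 0.0191 times that of early meiotic cells, on 9 and 14 UMIs. Elongating spermatids held 4.19 CPM at 556.8 h, above the 0.166 CPM of late pachytene cells there. Pgk1-rs7, a processed copy on another chromosome, had at most 15 UMIs in any sum.

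Pgam2 was higher in early pachytene cells than in early meiotic cells in every library and highest in late pachytene cells. It had 102 UMIs in 36 early pachytene cells at 144 h, against 1 UMI in 1340 early meiotic cells, or 69 CPM (56.3 to 83.8) against 0.0562 CPM (0.00142 to 0.313), a ratio of 1228 with an interval of 215 to 48963. At 350.4 h it was at 408 CPM in early pachytene cells and 28.6 CPM in early meiotic cells, 14.3 times higher. It was highest in late pachytene and diplotene cells, at 1371 CPM (1356 to 1386) at 763.2 h and 1483 CPM (1473 to 1493) at 556.8 h. Round spermatids held 1124 CPM and elongating spermatids 1101 and 1028 CPM at 763.2 and 556.8 h. From late pachytene on these levels differed by less than 1.5-fold, and elongating over round was 0.980 (0.958 to 1.00). Of the 3 consecutive glycolytic enzymes, Pgam2 thus had its highest level in late pachytene cells, and Pgk2 and Gapdhs had theirs in elongating spermatids. Its somatic partner Pgam1 was lower at both of the first steps. Undifferentiated spermatogonia, differentiating spermatogonia and early meiotic cells held 321, 192 and 46.3 CPM at 144 h and 201, 87.2 and 35.1 CPM at 350.4 h. Differentiating over undifferentiated was 0.599 at 144 h and 0.522 at 763.2 h, neither called, and 0.433 (0.390 to 0.482) at 350.4 h, which was called lower. Early meiotic over differentiating was 0.241 (0.223 to 0.259) at 144 h and 0.171 and 0.213 at 556.8 and 763.2 h, all called lower, and 0.402 at 350.4 h, which was not called. Pgam1 was then at 31.8, 17.1, 12 and 14.9 CPM in early pachytene cells over the 4 libraries and at 2.76 CPM in round spermatids.

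Pdha2 rose at early pachytene and fell at the elongating step. Pdha2 was at 349.7, 390.3, 309.9 and 363 CPM in early pachytene cells at 144, 350.4, 556.8 and 763.2 h. Early meiotic cells held 25.8 and 21.2 CPM at 144 and 350.4 h, so early pachytene was 13.6 times (11.9 to 15.4) and 18.4 times higher. Elongating spermatids held 116 CPM and late pachytene cells 230.0 CPM at 556.8 h. At 763.2 h late pachytene cells held 205 CPM, round spermatids 253 CPM and elongating spermatids 36.4 CPM, the last 0.144 times (0.130 to 0.159) the round level. Pdha2 was also present before meiosis, at 19.3, 18.5, 15.9 and 41.4 CPM in undifferentiated spermatogonia at 0, 144, 350.4 and 763.2 h. Spermatid markers took 4095 CPM of the 763.2 h sum, against 104 CPM at 350.4 h. The part of spermatid RNA in its 20 Pdha2 UMIs at 763.2 h was not tested. Sertoli-like cells of the 0 and 144 h libraries held 0.560 and 0.697 CPM.

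Pdha1 fell at the first step, between the 2 kinds of spermatogonia. Differentiating spermatogonia held 10.3 CPM at 144 h, against 48.4 CPM in undifferentiated spermatogonia, a ratio of 0.213 (0.182 to 0.249). The ratio was 0.145 at 350.4 h (6.98 CPM against 48.0 CPM) and 0.187 at 763.2 h (6.96 CPM against 37.3 CPM, on 28 and 18 UMIs, too few for a call). Early meiotic cells held 15.9, 10.1, 10.4 and 9.52 CPM over the 4 later libraries. In early pachytene cells Pdha1 was at 1.35, 0.219, 0 and 0 CPM, where counts of 0 allow 0.949 CPM at 556.8 h and 0.275 CPM at 763.2 h. It stayed under 0.4 CPM in every later class, so Pdha2 made up 99.5% to 100% of the pair's UMIs from early pachytene to elongating spermatids in every library. At 144 h the share of Pdha2 was 27.7% in undifferentiated spermatogonia, 54.1% in differentiating spermatogonia and 61.9% in early meiotic cells.

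Cyct, the germline cytochrome c, was highest in early pachytene cells, as Pdha2 was, and was also present in spermatogonia. Cyct was at 89.6, 115, 93.2 and 99.5 CPM in undifferentiated spermatogonia at 0, 144, 350.4 and 763.2 h, and there 20.6%, 23.4%, 26.3% and 33.1% of cytochrome c UMIs were Cyct. Spermatid markers took 4095 CPM of the 763.2 h sum, and the part of spermatid RNA in its Cyct values was not tested. Differentiating spermatogonia held 50.4 CPM at 144 h, 0.437 times (0.403 to 0.474) the undifferentiated level. That call was lost with each library clustered alone, at a clustering resolution of 1, with doublets kept, with a mitochondrial limit of 10% and in the 763.2 h library, where the ratio was 0.610. Early meiotic cells held 42.3 CPM, and early pachytene cells 561, 759.9, 642 and 717 CPM at 144, 350.4, 556.8 and 763.2 h. Early pachytene over early meiotic was 13.3 (12 to 14.6) at 144 h, 24.2 at 350.4 h and 11.6 (9.54 to 14.2) at 763.2 h. Cyct then fell at each step of the 763.2 h library, to 299 CPM in late pachytene cells, 128 CPM in round spermatids and 20.6 CPM in elongating spermatids, with ratios of 0.417, 0.429 and 0.161. The late pachytene ratio was 0.568 at 556.8 h, which was not called. The call at 763.2 h was lost with at least 5000 UMIs a cell (log2 ratio -1.02) and with each library clustered alone (-0.94), against -1.26.

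Cycs, the somatic cytochrome c, was highest in Sertoli-like cells, at 1905, 2336, 1676 and 1323 CPM at 0, 144, 350.4 and 556.8 h. It was at 444 CPM in differentiating spermatogonia, 325 CPM in early meiotic cells and 165 CPM in early pachytene cells at 144 h. Early pachytene cells held 49.5, 27.2 and 27.1 CPM in the next libraries and late pachytene cells 9.06 and 7.83 CPM at 556.8 and 763.2 h. Round spermatids held 21.1 CPM (19.0 to 23.4) at 763.2 h, 2.70 times (2.26 to 3.24) the late pachytene level. Cycs was the single somatic member called higher at any of the 6 main stage steps, and with doublets kept it was not called. Cyct made up 97.4% of the pair in late pachytene cells, 85.9% (84.5 to 87.2) in round spermatids and 61.1% (56.2 to 65.9) in elongating spermatids at 763.2 h, and 60.4% (57.0 to 63.8) in elongating spermatids at 556.8 h. In no other pair did the germline share drop below 99% in spermatids.

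**Figure D2:**
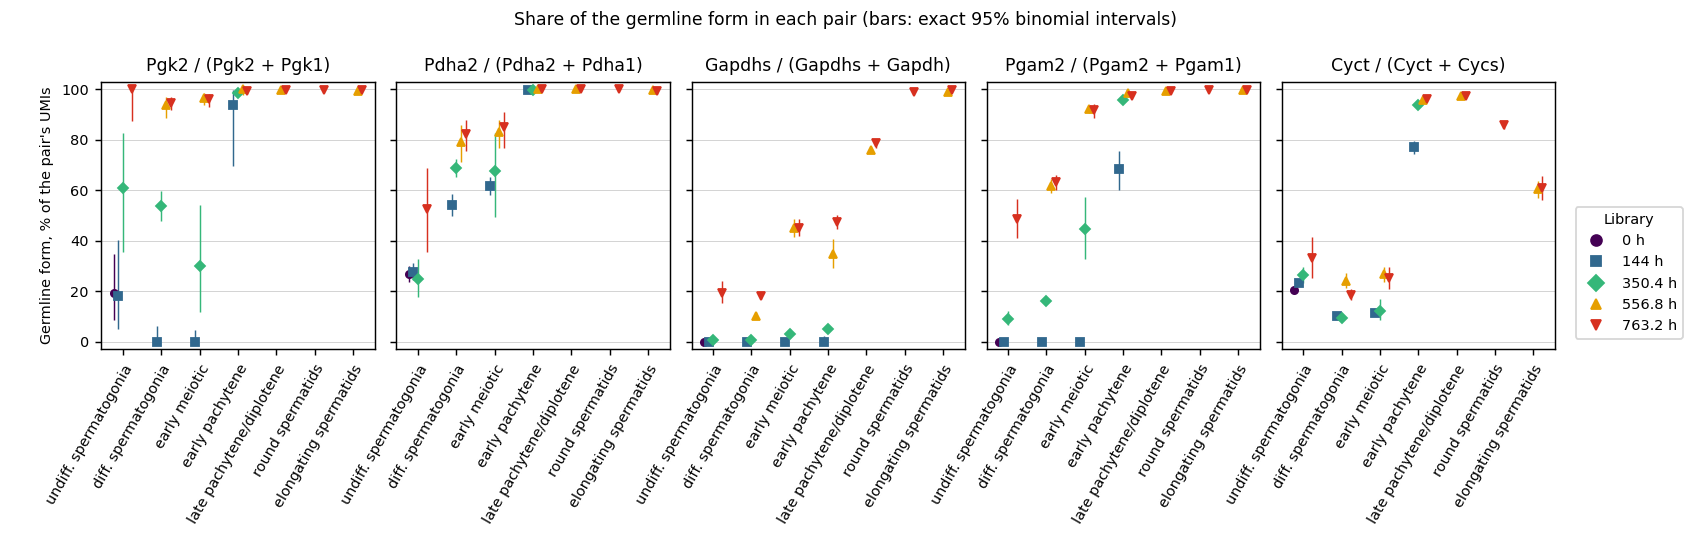
Share of each pair's UMIs that came from the germline form (percent, from 0 to 100), by germ cell class in stage order. Each point is 1 library with its exact 95% binomial interval. Pdha and Pgam reach nearly 100% at early or late pachytene, Gapdh at round spermatids, and cytochrome c drops to 61.1% and 60.4% in elongating spermatids.

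The steps were compared with all features tested, meaning those with at least 50 UMIs in either sum, and a feature was called when its whole interval lay beyond 2-fold. From undifferentiated to differentiating spermatogonia at 144 h, 1 of 2 germline forms tested was called lower (Cyct) and 1 of 5 somatic forms (Pdha1), against 9.77% of all features called lower. No member tested was called higher there, against 4.82%. At the early meiotic step of 144 h 1 of 5 somatic forms was called lower (Pgam1), against 13.7%, and none of the 7 members tested higher, against 7.21%. At early pachytene in the same library 3 germline forms were called higher (Pdha2, Pgam2 and Cyct), against 11.3% of features, and 2 somatic forms lower (Gapdh and Pdha1), against 17.5%. At 350.4 h these 3 germline forms were again called higher, against 15.1%, and Gapdh and Cycs lower, against 18.0%. At 763.2 h the 3 were called higher once more, against 11.6%, while Pgk2 and Gapdhs were called lower, at 0.322 and 0.237 times the early meiotic level, with Gapdh at 0.218 and Cycs at 0.148 times, against 20.8%. With free RNA subtracted neither Pgk2 (log2 ratio -0.31) nor Gapdhs (-1.33) was called there, and Pgk2 was higher at 350.4 h (1.92). The 2 somatic forms called lower at 763.2 h became 1 with a mitochondrial limit of 10% or 50%, with at least 5000 UMIs a cell and at a clustering resolution of 1. Pdha2, Pgam2 and Cyct were also called higher at 556.8 h, against 13.5%, with Gapdhs, Gapdh and Cycs lower, against 25.8%. Spermatid markers took 1550.5 CPM of the early pachytene sum and 7417 CPM of the early meiotic sum at 763.2 h, and 12 of 12 of them were detected in both.

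**Figure D3:**
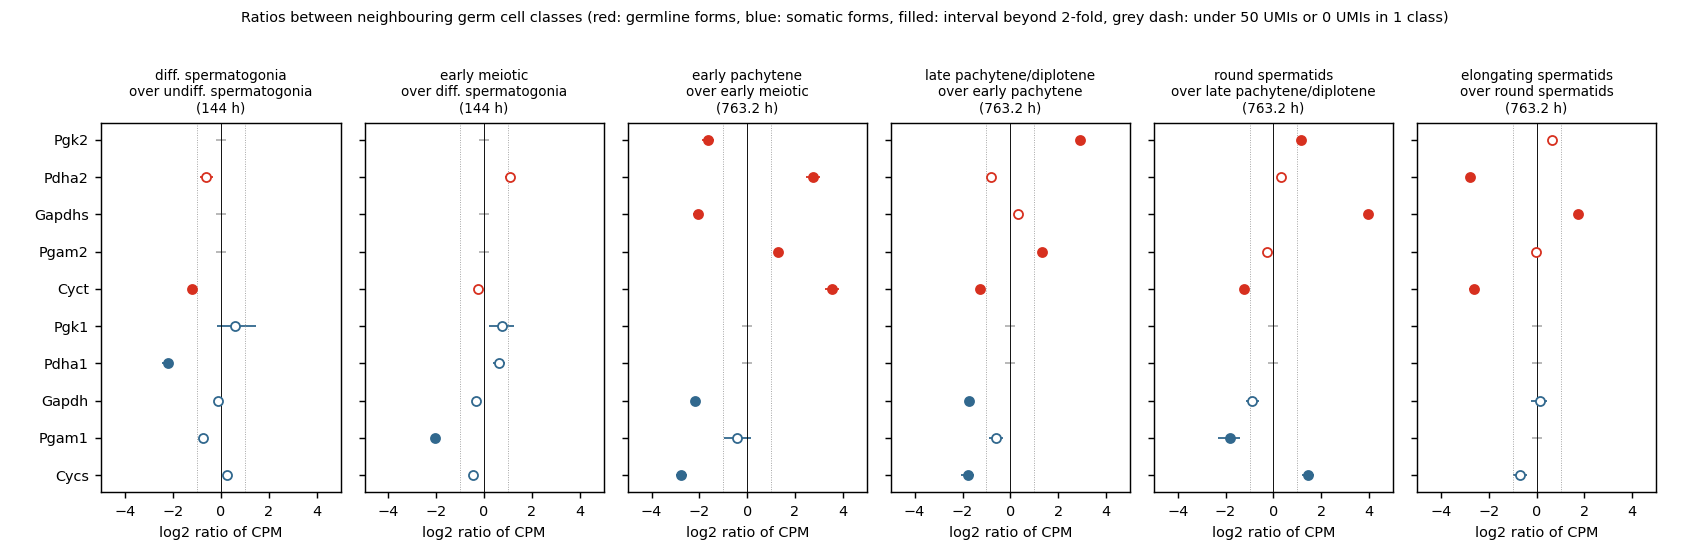
Ratio of CPM at each of the 6 stage steps (log2 axis, later class over earlier class) for each member, with exact 95% intervals, germline forms in red and somatic forms in blue. Filled points have an interval wholly beyond 2-fold, and grey dashes mark members with too few UMIs. Pdha2, Pgam2 and Cyct lie far above the limit at early pachytene, Gapdhs at the round spermatid step, and Pdha2 and Cyct far below it at the elongating step.

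At late pachytene 2 of 5 germline forms were called higher (Pgk2 and Pgam2), against 19.5% of features, and Cyct, Gapdh and Cycs lower, against 23.5%, where the call of Cyct was lost under the settings named above. In the 556.8 h library Pgk2 was called higher at this step, against 9.72%, and Gapdh and Cycs lower, against 15.8%. At the round spermatid step Pgk2, Gapdhs and Cycs were called higher, against 26.2%, and Cyct and Pgam1 lower, against 35.7%. At the elongating step Gapdhs was called higher, against 8.26%, and Pdha2 and Cyct lower, against 54.5%. The median of all features at that step was -1.59 on the log2 scale, and the 12 spermatid markers took 280917 CPM of elongating and 15388 CPM of round spermatid UMIs. The median of the 5 germline forms was -0.03.

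Other genes of the same pathways were counted at the same steps. At 763.2 h spermatid markers took 1550.5 CPM of the early pachytene sum and 7417 CPM of the early meiotic sum. The part of spermatid RNA in the early pachytene ratios of that library was not tested. Among 18 other glycolysis genes, 6 of 15 tested were called lower, against 9.77% of all features, and none higher, against 4.82%, from undifferentiated to differentiating spermatogonia, with a list median of -0.77 against 0.10 for all features. Ldha, the muscle-type subunit of lactate dehydrogenase, was at 0.105 times (0.0769 to 0.140). Pfkp, which encodes the platelet form of phosphofructokinase, was at 0.123 times (0.0837 to 0.177). At early pachytene (763.2 h) 2 of 12 were higher, against 11.6% of all features, Ldha at 5.53 times (4.88 to 6.28) and Tpi1, triosephosphate isomerase, at 3.54 times (2.90 to 4.37). Another 3 were lower there, Hk1, Gpi1 and Pkm, against 20.8%. In the 144 and 350.4 h libraries 3 of 14 and 4 of 13 were higher, against 11.3% and 15.1%. In those libraries 3 and 2 were lower, against 17.5% and 18.0%. At the round spermatid step 6 of 14 were higher, against 26.2%, and 3 lower, against 35.7%. Pfkfb3, which makes the activator of phosphofructokinase, was at 38.2 times (28.0 to 53.5) and Pkm, pyruvate kinase, at 10.4 times (8.71 to 12.4), while Pfkm was at 0.260 times. At the elongating step 4 of 14 were higher, against 8.26%, and 3 lower, against 54.5%, with a median of 0.19 against -1.59 for all features. Gpi1, the isomerase of glucose-6-phosphate, was at 8.54 times (8.0 to 9.13) and Pfkfb4 at 10.5 times (7.73 to 14.5).

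Of 12 genes of the pyruvate dehydrogenase complex and its control, 2 of 8 tested were higher, against 11.6% of all features, and 2 lower, against 20.8%, at early pachytene at 763.2 h. Dlat, the E2 subunit, was at 6.23 times (4.89 to 8.06) and Pdhb, the E1 beta subunit, at 3.0 times (2.52 to 3.59) the early meiotic level. Mpc1, a subunit of the mitochondrial pyruvate carrier, was at 0.170 times (0.148 to 0.195) and Pdk3, a kinase that inactivates the complex, at 0.0320 times (0.0199 to 0.0496). At 144 and 350.4 h 2 of 11 and 2 of 9 of the list were higher, against 11.3% and 15.1%. In those libraries 3 and 2 were lower, against 17.5% and 18.0%. Pdhb and Dlat then fell in late pachytene cells, to 0.320 and 0.414 times the early pachytene level. At the elongating step 8 of 9 tested genes of the list were called lower, against 54.5%, and none higher, with a median of -2.38 against -1.59 for all features. Dlat was at 0.138 times and Pdha2, the germline member, at 0.144 times. Among 11 partners of cytochrome c, 1 of 10 tested was higher and 1 lower at early pachytene at 763.2 h, against 11.6% and 20.8%. Uqcrc1 of complex III was at 2.64 times (2.31 to 3.02), and Hccs, the enzyme that attaches haem to cytochrome c, was at 0.00487 times on 5 and 158 UMIs. At 144 and 350.4 h 0 and 2 of 11 partners were higher, against 11.3% and 15.1%. In each of those libraries 2 were lower, against 17.5% and 18.0%. At the elongating step 4 of 8 tested were lower, a share near the 54.5% of all features, among them Uqcrfs1 at 0.142 times and Cox6c at 0.163 times, with a median of -1.59.

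Other genes listed as germline forms were compared in the same way. The list sets Slc2a3 beside Slc2a1, and whether Slc2a3 is particular to germ cells was not tested. Of 14 genes so listed, 5 of 11 tested were called higher, against 11.6% of all features, and 1 lower, against 20.8%, at early pachytene at 763.2 h, with a median of 1.18 against -0.12 for all features. The glucose transporter Slc2a3 was at 11.0 times (9.14 to 13.4) and Cox8c, a testis form of a cytochrome c oxidase subunit, at 7.42 times (6.92 to 7.96), while the aldolase Aldoart2 was at 0.248 times. Spermatid markers took 7417 CPM of the early meiotic sum there, and the part of spermatid RNA in these ratios was not tested. At 144 and 350.4 h 6 of 7 and 8 of 11 were higher, against 11.3% and 15.1%. None was lower in those libraries, against 17.5% and 18.0%. The list medians there were 5.89 and 3.41, against -0.39 and -0.11 for all features. At the round spermatid step 5 of 14 were higher, against 26.2%, led by the sodium pump Atp1a4 at 20.9 times (17.0 to 25.9) and by Aldoart2 at 12.8 times, and 3 were lower, against 35.7%, Slc2a3 at 0.0270 times and Slc25a31 at 0.117 times among them. At the elongating step 9 of 14 were lower, against 54.5%, and none higher, against 8.26%, with a median of -1.65, near the -1.59 of all features, and Gk2, a glycerol kinase, was at 0.105 times. Gapdhs was at 3.29 times at that step.

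The X-linked members were set beside their chromosome. Of the UMIs of features with a known chromosome, X-linked features took 2.03% in undifferentiated spermatogonia and 2.87% in early meiotic cells at 144 h. Early pachytene cells were at 0.456%, 0.101%, 0.0660% and 0.0761% at 144, 350.4, 556.8 and 763.2 h, and late pachytene cells at 0.174% and 0.111% at 763.2 and 556.8 h. Round spermatids were back at 1.42%, and elongating spermatids at 1.32% and 1.71% at 763.2 and 556.8 h. Pdha1 and Pgk1 were low where the chromosome was low. In round spermatids Pdha1 was at 0.0574 CPM, on 1 UMI, and Pgk1 at 0.689 CPM, on 12 UMIs. The fall of Pdha1 in differentiating spermatogonia, to 0.213 times, came where the X-linked share was 2.21%, against 2.03% in undifferentiated spermatogonia. Gapdh and Cycs, both autosomal, were also called lower at early pachytene at 350.4 h. The causes of these falls were not tested. The chromosome was known for 81.6% of features, and all X-linked shares here are of the UMIs of those features.

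Single cells were compared after thinning each to 2000 UMIs, since median depth was 32208, 35556 and 18408 UMIs in late pachytene, round and elongating cells at 763.2 h and 4748 UMIs in Sertoli-like cells at 0 h. Gapdhs was seen in 16.0% of late pachytene cells, 83.6% of round spermatids and 99.7% (98.9 to 100) of elongating spermatids at 763.2 h. Pgk2 was seen in 44.0%, 74.2% and 86.7% of those cells and Pgam2 in 90.5%, 88.7% and 87.1%. Pdha2 was seen in 31.9%, 39.5% and 7.51% and Cyct in 36.9%, 24.8% and 5.75% of them. Before thinning, these shares were between 30.4% and 100%. In early pachytene cells at 350.4 h Cyct was seen in 70.1% (66.0 to 74.1), Pdha2 in 52.8% (48.4 to 57.3) and Pgam2 in 35.8% (31.6 to 40.1), and Pgk2 in 1.96%. The Sertoli-like cells of 0 h, which should lack germline forms, had Cyct in 1.21% and Pgk2 and Gapdhs in none of their thinned cells. At 556.8 h the Sertoli-like cells had Gapdhs in 14.6%, Pgk2 in 10.4% and Pgam2 in 43.8%, and shares of early germ cells in the late libraries at or below these values are not read as expression. Spermatid markers took 4513 CPM of those Sertoli-like cells, but 8085 and 7417 CPM of early meiotic cells at 556.8 and 763.2 h. Higher shares of these genes in spermatogonia and early meiotic cells of the late libraries are therefore not read as expression either.

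Before spermatid RNA was abundant, thinned cells with both forms of a pair were mostly those with both cytochromes c, a result that depends on depth. At 2000 UMIs both Cyct and Cycs were seen in 11.9% (8.31 to 16.4) of undifferentiated spermatogonia at 144 h, in 4.10% of early meiotic cells and 13.9% (4.67 to 29.5) of early pachytene cells at 144 h, in 7.27% (5.17 to 9.88) of early pachytene cells at 350.4 h and in 0.879% of late pachytene cells at 763.2 h. Pdha1 had no UMI in any thinned early pachytene cell, so cells with both Pdha forms could not be seen at that depth. Unthinned, Pdha2 was seen in 496 and Pdha1 in 8 of the 509 early pachytene cells at 350.4 h, and Pdha2 in 34 and Pdha1 in 2 of the 36 at 144 h. Both Pdha forms were seen in 0.373% of thinned undifferentiated spermatogonia at 144 h. Before thinning, 222 of those 268 cells held Pdha1 and 120 held Pdha2, so many must have held both. Gapdh and Gapdhs met in 15.3% (11.5 to 19.8) of differentiating spermatogonia at 763.2 h and in 0 of 845 at 144 h, with spermatid markers at 5097 and 5.26 CPM. They met in 2.17% of round spermatids and 2.56% of elongating spermatids at 763.2 h. Pgk1 and Pgk2 met in at most 0.741% of the cells of a germ cell class, in elongating spermatids at 556.8 h.

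**Figure D4:**
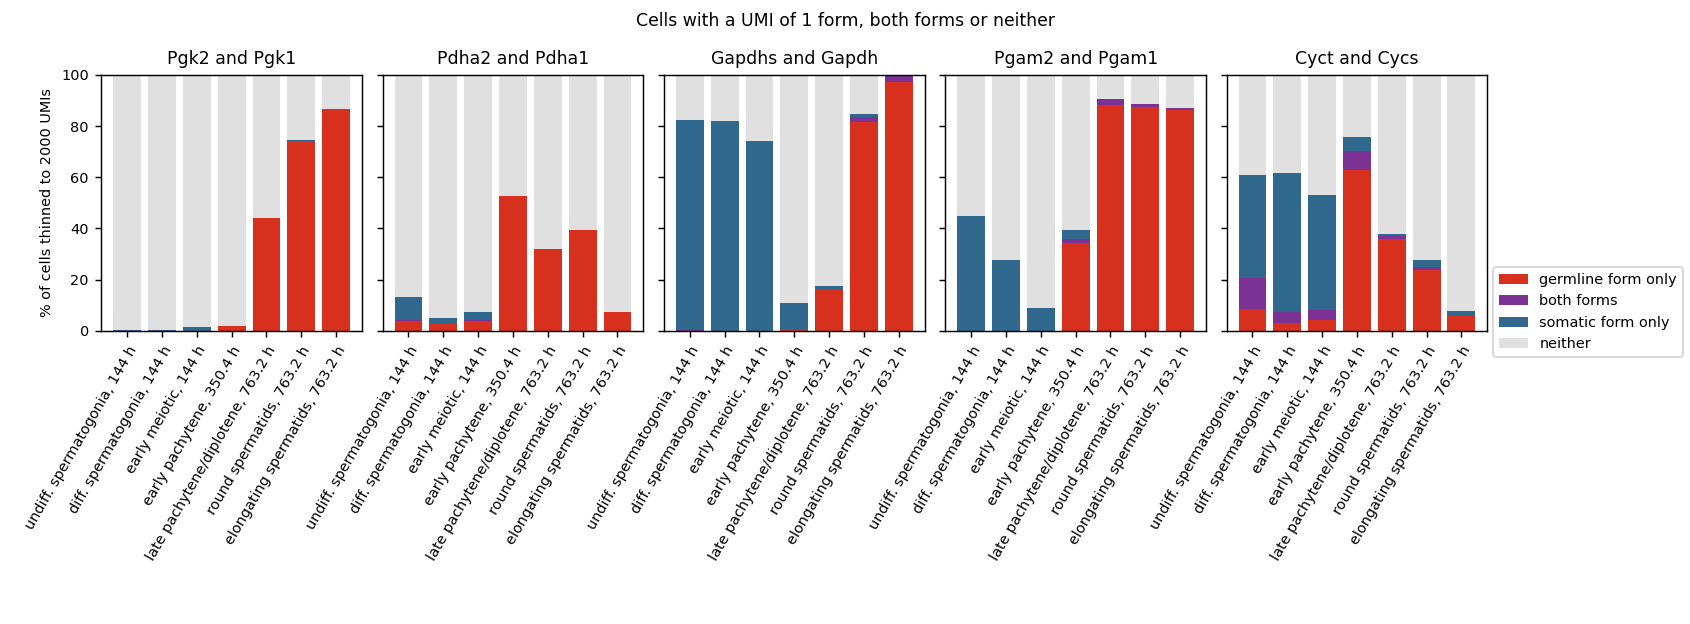
Share of cells (percent, cells thinned to 2000 UMIs) with the germline form only, both forms, the somatic form only or neither, by class and library, 1 panel a pair. Both forms of cytochrome c are seen in 11.9% of undifferentiated spermatogonia at 144 h, and Pdha2 without Pdha1 in 52.8% of early pachytene cells at 350.4 h, where no thinned cell held Pdha1.

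Sertoli-like cells, the somatic cells that support germ cells, were summed at 4 times, and the cells of different times came mostly from different clusters. Their median depth was 4748, 9806, 1393 and 25588 UMIs at 0, 144, 350.4 and 556.8 h, and 505 of the 580 cells at 350.4 h lay in 1 cluster, where spermatid markers took 1494 CPM. Cyct was at 4.34, 2.02, 53.1 and 84.7 CPM at 0, 144, 350.4 and 556.8 h, and Pgam2 at 0.392, 0, 59.4 and 284 CPM. Pgk2 was at 0, 0.0332, 22.9 and 71.3 CPM, Gapdhs at 0, 0.0995, 23.9 and 61.2 CPM and Pdha2 at 0.560, 0.697, 24.2 and 40.3 CPM. Spermatid markers in the same sums were at 2.24, 0.995, 463 and 4513 CPM. All 5 germline forms were called higher at 350.4 h over 144 h, against 5.92% of features, and Pgk2 and Pgam2 at 556.8 h over 350.4 h, against 4.71%. The 5 became 2 with a mitochondrial limit of 10% and 1 with at least 5000 UMIs a cell. The 2 became 0 with every cell weighing the same, 1 with free RNA subtracted, and 5 with a mitochondrial limit of 50% or at least 5000 UMIs a cell. At 144 h over 0 h Cyct was the 1 germline form tested and was not called, against 7.98% called higher. Of the somatic forms, 5, 5 and 3 were tested at the 3 steps and none was called, and no member tested was called lower, against 13.8%, 2.93% and 0.901% of features. Gapdh was at 1539.9, 1476, 1179 and 930.2 CPM and Pgam1 at 461, 565, 419.8 and 372 CPM.

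**Figure D5:**
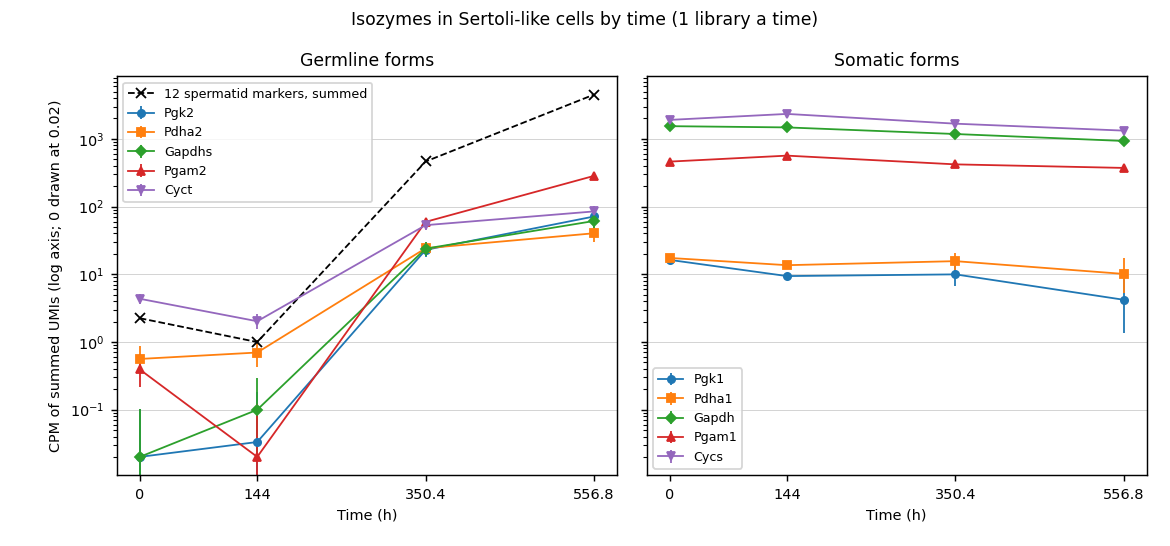
Levels of the 5 germline and the 5 somatic forms in Sertoli-like cells (CPM, log axis) against time in hours, with exact 95% Poisson intervals, beside the summed spermatid markers. Germline forms and spermatid markers are near 0 at 0 and 144 h and higher at 350.4 and 556.8 h, while Gapdh stays between 930.2 and 1539.9 CPM.

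The germline forms were read against the spermatid markers within each sum. At 350.4 h, per 1000 spermatid marker UMIs, Gapdhs was at 51.5 in Sertoli-like cells, 50.3 in peritubular myoid cells, 41.7 in undifferentiated and 49.7 in differentiating spermatogonia, 66.3 in early meiotic, 61.8 in early pachytene and 32.4 in shallow germ cells. Pgk2 was at 49.4, 50.3, 50.9, 48.2, 30.6, 377 and 36 in the same classes. The peritubular, undifferentiated and early meiotic values rest on 6 to 13 UMIs each. Cyct was at 115 and 117 in the Sertoli-like and peritubular cells but at 898 in undifferentiated and 312 in differentiating spermatogonia, and Pdha2 at 52.3 and 78.2 against 153 and 133. In early pachytene cells at 350.4 h Pdha2 was at 7042, Pgam2 at 7362 and Cyct at 13709.7. At 556.8 h, per 1000 marker UMIs, Sertoli-like cells held 13.6 Gapdhs, 15.8 Pgk2, 63.0 Pgam2, 8.92 Pdha2 and 18.8 Cyct UMIs, and the whole library 11.1, 9.21, 35.9, 5.90 and 8.52.

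In the other somatic classes at 0 and 144 h, Pgk2, Gapdhs and Pgam2 were near 0, while Cyct and Pdha2 were detected in several. Pgk2, Gapdhs and Pgam2 were at or under 1.29 CPM in Leydig-like, stromal-like, endothelial-like, macrophage-like, red-blood-like and peritubular myoid cells. Cyct was at 43.8 CPM (33.7 to 56.0) in red-blood-like, 29.8 CPM in macrophage-like, 11.5 CPM in Leydig-like and 7.97 CPM in stromal-like cells at 0 h, and at or under 2.11 CPM in these classes at 144 h, where red-blood-like cells were too few. Pdha2 was at 9.04 CPM in red-blood-like cells and 5.18 CPM in macrophage-like cells at 0 h, on 13 and 4 UMIs. Red-blood-like cells of 0 h held Cycs at 1078 CPM. Somatic forms differed between somatic classes. Gapdh was at 1544 CPM in macrophage-like and 1539.9 CPM in Sertoli-like cells at 0 h, and at 1476 CPM in Sertoli-like, 1462 CPM in endothelial-like and 1439.8 CPM in macrophage-like cells at 144 h, and at each time these levels differ by less than their intervals. It was lowest in peritubular myoid cells, at 332 to 507 CPM over the 5 libraries. Pdha1 was lowest in Sertoli-like cells among the named somatic classes, at 10.1 to 17.4 CPM. It was at 57.2 to 88.4 CPM in peritubular myoid, 64.3 and 75.5 CPM in stromal-like, 59.5 CPM in endothelial-like and 38.8 and 32.9 CPM in macrophage-like cells. Pgam1 was highest in Sertoli-like cells at 144 h, at 565 CPM, and at 453 and 505 CPM in Leydig-like cells at 0 and 144 h.

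Likeness of pattern was measured as Pearson's r of log2(CPM + 10) over 37 class and library sums, which share libraries, depth and free RNA. Gapdhs was most like Prm3 (0.996), Smcp (0.995) and Znrf4 (0.995), the first 2 being genes used to name elongating spermatids. Pgam2 was most like Crisp2 (0.996), Hrasls5 (0.995) and Atp8b3 (0.995), and Pgk2 like Lkaaear1 (0.993), Dgkeos (0.990) and Ankrd60 (0.989). Pdha2 was most like Tcte3 (0.970), Clgn (0.968) and Wfdc15a (0.967), and Cyct also like Wfdc15a (0.967), then Tcp1 (0.959) and Cox7b2 (0.958). Among somatic forms, Gapdh was most like Psma7 (0.976), Taldo1 (0.965) and Adh5 (0.964), Pgam1 like Pdcd6 (0.967), Mdh1 (0.967) and Cox8a (0.957), Pdha1 like Txnip (0.955), Eva1b (0.923) and Rsu1 (0.919) and Cycs like Gart (0.949), Trim26 (0.938) and Minpp1 (0.935). Pgk1 had the weakest likeness, with Ngfrap1 (0.760), Wbp5 (0.75) and Bmyc (0.744). Within pairs the 2 forms had r of -0.77 for Pgam, -0.76 for Pdha, -0.67 for Gapdh, -0.51 for cytochrome c and -0.43 for Pgk.

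Germ cells given no stage spanned the whole range. Over 15 clusters of 12209 shallow germ cells Pgk2 lay between 0.124 and 2425 CPM and Gapdhs between 0 and 2508 CPM, with medians of 265 and 364 CPM. The highest Pgk2 level of any cluster was therefore in shallow cells, above the 1072 CPM of elongating spermatids at 763.2 h. Over the 12 unnamed clusters of 4634 cells Pgam2 lay between 0 and 1423 CPM, with a median of 908 CPM.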

How the data were processed

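The submitters deposited 1 matrix per library with raw UMI counts for 27998 mouse features, made with Cell Ranger 3.0.2 per the file headers. Per the submitters' processing notes the build was mm10, with Seurat 4.3.0.1 among the tools. The deposited counts are neither normalized nor corrected for free RNA, and library totals ran from 75578147 to 118147393 UMIs, with medians of 2864 to 7551 UMIs per barcode. Low depth widens the counting intervals, and 3' counts without a length correction do not compare levels between genes.

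Cells with under 1000 UMIs or 500 genes (0 to 2254 per library), with 20% or more mitochondrial UMIs (38 to 916) or with a doublet score over 0.25 (153 to 440) were removed in Python 3.11.15 with scanpy 1.11.5, leaving 38208 cells. Clustering used 3000 variable genes, 40 principal components, 15 neighbours and a Leiden resolution of 2.0, which gave 69 clusters. The 10 members and the pathway lists were left out, except genes that are also markers. Clusters were named from marker lists, and germ cell clusters with a median under 5000 UMIs got no stage.

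Counts were summed per class and library (at least 30 cells) and given as CPM. Levels have exact Poisson intervals, shares exact Clopper-Pearson intervals, and ratios exact conditional binomial intervals, all at 95% and for counting error only. A ratio was called when its whole interval lay beyond 2-fold with at least 50 UMIs in either sum. A count of 0 allows up to 3 counts. Each stage step used the library with most cells of the smaller class. The ratio code was tested on simulated data. Genes are named by a fixed rule: all members, the 3 most alike genes per member, and up to 4 examples per pathway list. Members and lists were chosen with earlier results of these data known. Sequences are from RefSeq (GRCm38.p6) and gene models from GENCODE M21 (GRCm38). Alternatives tried were other cell filters, clusterings, weights, thresholds and a free RNA correction.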

Additional observations from a re-analysis of the deposited data

Results flagged for a closer look

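The first result to look at again is Pgk2 at the step between early meiotic and early pachytene spermatocytes, because its direction differed between libraries: early pachytene over early meiotic was 3.78 at 350.4 h, 0.617 at 556.8 h and 0.322 at 763.2 h. Spermatid markers took 55.4, 1943 and 1550.5 CPM of the early pachytene sums of those libraries, and 181, 8085 and 7417 CPM of the early meiotic sums. Gapdh also lay on both sides of 1 between the kinds of spermatogonia, with differentiating over undifferentiated at 0.927 at 144 h, 0.992 at 350.4 h and 1.15 at 763.2 h. With 1 library per time, neither difference between libraries was tested.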

How the results depend on the processing

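With 1 library per time no library could be left out of a comparison. No paired analysis was possible because each time has 1 library. The free RNA correction was run for 556.8 and 763.2 h, where spermatid markers were abundant, and leaves the other libraries as they are. Of 424 counts of called members recomputed, 379 were within 1.5 times of the reported count and 45 moved, each by a few members. The reported counts, germline then somatic, are 1 and 1 lower in differentiating spermatogonia, 0 and 1 lower in early meiotic cells, 2 and 2 lower in early pachytene cells, 1 and 2 lower in late pachytene cells and 1 and 1 lower in round spermatids. At a resolution of 1, germline forms lower in differentiating spermatogonia became 0, germline forms higher in early meiotic cells 1, somatic forms lower in early pachytene cells 1 and in round spermatids 0. With at least 5000 UMIs a cell, germline forms lower became 1 in early meiotic, 1 in early pachytene and 0 in late pachytene cells, somatic forms lower in early pachytene cells 1, and germline forms higher in Sertoli-like cells 1 at 350.4 h and 5 at 556.8 h. With calls beyond 1.5-fold, the counts were 2 somatic forms lower in differentiating spermatogonia, 1 germline form higher in early meiotic cells, 2 germline forms lower in late pachytene cells, 2 somatic forms lower in round and 2 germline forms higher in elongating spermatids, and 1 of each form lower in Sertoli-like cells at 144 h. With each library clustered alone, germline forms lower became 0 in differentiating spermatogonia, 1 in early pachytene and 0 in late pachytene cells, and 1 somatic form was lower in elongating spermatids. With every cell weighing the same, 1 germline form was higher in round spermatids and 0 in Sertoli-like cells at 556.8 h. With features of at least 10 UMIs tested, 1 germline form was lower in Sertoli-like cells at 144 h. With free RNA subtracted, 0 germline forms were lower in early pachytene cells and 1 was higher in Sertoli-like cells at 556.8 h. A mitochondrial limit of 10% gave 0 germline forms lower in differentiating spermatogonia, 1 somatic form lower in early pachytene cells and 2 germline forms higher in Sertoli-like cells at 350.4 h. A limit of 50% gave 2 somatic forms lower in differentiating spermatogonia, 1 in early pachytene cells and 5 germline forms higher in Sertoli-like cells at 556.8 h. With doublets kept, 0 germline forms were lower in differentiating spermatogonia and 0 somatic forms higher in round spermatids. The same steps in other libraries, an alternative chosen after seeing the data, gave 2 (350.4 h) and 0 (763.2 h) somatic forms lower in differentiating spermatogonia, 0 germline forms lower there at 763.2 h, and 0, 2 and 2 somatic forms lower in early meiotic cells at 350.4, 556.8 and 763.2 h. They gave 0, 0 and 1 germline forms lower in early pachytene cells at 144, 350.4 and 556.8 h, and 1 higher and 0 lower in late pachytene cells at 556.8 h. 

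Of 2677 recomputed log2 ratios of single members, 508 moved beyond their counting interval, and 5 whose reported ratio was called changed sign. Sign changes of ratios that were not called were not counted apart. Of 2640 member levels 614 moved, of 1293 germline shares 236, and, with cells thinned to 1000 UMIs, of 370 shares of cells with a UMI 215 and of 105 shares with both forms 56. Early pachytene over early meiotic at 763.2 h was -1.63 for Pgk2 and 1.92 in the 350.4 h library, and -2.19 for Gapdh, but 0.89 with a mitochondrial limit of 10% and 0.50 with at least 5000 UMIs a cell. In the last 2 settings Gapdh was at 59.9 and 54.7 CPM in early pachytene cells at 763.2 h, against 60.3 CPM as reported, and at 32.2 and 38.7 CPM in early meiotic cells, against 276 CPM. Early meiotic cells at 556.8 h over 350.4 h were at 3.32 for Gapdhs and at -0.02 with free RNA subtracted. Sertoli-like cells at 556.8 h over 350.4 h were at 1.64 for Pgk2 and at -0.07 with every cell weighing the same. The causes were not tested.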
